A study of Mus musculus with 6 samples.

Results

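The insulin-like growth factor (IGF) family was examined in fetal mouse livers that were meant to lack HNF4 alpha and in control livers. Its 10 genes were the ligands Igf1 and Igf2, the receptors Igf1r and Igf2r, the binding proteins Igfbp1, Igfbp2, Igfbp3, Igfbp4 and Igfbp7, and Igfals, which encodes the acid-labile subunit. They were chosen by family name, with results of the same null against control comparison on the same arrays already known, so all their values are a description and their calls are no independent evidence. Every probe set whose only gene symbol was one of these was used, which gave 27 probe sets of 45037, for 10 genes of 18193. A probe set is a group of short probes on the array that are read together as 1 intensity. Probe sets of 1 gene measure the same RNA and are not replicates.

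The 3 null livers carried 2 loxP-flanked Hnf4 alleles and the AlfpCre transgene (strain label HNF4LoxP/LoxP AlfpCre), and the 3 control livers carried 1 flanked allele, 1 unflanked allele and the same transgene (HNF4LoxP/+AlfpCre, for Control_8 spelled Hnf4LoxP/+AlfpCre). Both groups therefore held Cre, and the controls had 1 flanked allele as well. In AlfpCre the albumin gene's promoter and enhancers of albumin and alpha-fetoprotein drive Cre, which directs deletion to the hepatocyte lineage, while the arrays read total RNA of the whole fetal liver at E18.5, shortly before birth. Arrays are called by group and title number, Null_61, Null_1191 and Null_1195, and Control_8, Control_1192 and Control_1193. The labels do not state litters or pooling, so errors measure the spread between these arrays.

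The arrays were comparable in overall brightness, with medians between 91.8 and 99.5. The null means of the 4 Hnf4a probe sets were 62.2% to 73.7% of the control means, and 2 of the 4 were called lower. In 1427001_s_at the reading of 2778.2 in Null_1195 lay inside the control range of 2607.0 to 2877.1. The place of these probes in the gene, inside or outside its deleted part, is not given, so they do not measure how complete the deletion was. Of 9 measured hepatocyte and hepatoblast markers 7 were called lower, where 7.85% of all genes were called lower and 1.56% higher. The median of the 9 log2 changes was -0.78. Their summed intensity was 51744 to 57308 in null livers and 85438 to 87251 in control livers, while Alb and Afp did not pass the test. Alb read 10164.6 to 11078.9 in null livers and 10337.1 to 10839.7 in control livers, and Afp read 11302.0 to 11553.2 in null livers and 11927.2 to 11995.0 in control livers, close to the highest values on the arrays (the lowest array maximum was 11302), so a fall in either may not be visible. In whole tissue, fewer cells of a type and less RNA per cell cannot be told apart. Null_61 and Control_8 stood apart from the other arrays, with readings of 33.5 and 42.1 in the control probe set for the 5' end of 18S ribosomal RNA, while the other null arrays read 515.0 and 616.5 and the other control arrays 449.0 and 504.5. The main results are therefore also given for these 2 arrays and for the other 4 arrays alone. Embryo sex, read from Xist and Y-linked probe sets, differed between the groups: 2 of 3 null livers and 1 of 3 control livers read as female. Null_1191, Null_1195 and Control_8 read as female, and Null_61, Control_1192 and Control_1193 as male. The other 4 arrays thus compare female null with male control livers, and Null_61 against Control_8 compares male null with female control. Within either split, group and sex cannot be told apart.

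IGF ligands are secreted growth factors that act through the tyrosine kinase receptor encoded by Igf1r. Igf2 is the main fetal ligand, whereas hepatic Igf1 comes under the control of growth hormone and supplies most of the circulating hormone after birth. In blood the ligands are held by binding proteins, which prolong their life and limit their access to the receptor, and the largest complex joins a ligand, Igfbp3 or Igfbp5 and the acid-labile subunit. Igf2r does not signal growth: it takes Igf2 up for breakdown in lysosomes.

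Promoter windows of the 3 genes whose brightest probe set was called lower are shown first, so that the letters upstream of each start site can be read beside the values. The windows are from RefSeq on GRCm38.p6, run 5' to 3' on the gene's strand, and hold 250 bases before the start site and 50 from it on. Capitals mark matches to CAAAGNNCA (HNF4 type), GTTAATNAT (HNF1 type) or TGTTTAC (FOXA type), searched on both strands. HNF1 and FOXA proteins are, like HNF4 alpha, transcription factors of the hepatocyte.
Igf1, chr10:87860861-87861160, plus strand: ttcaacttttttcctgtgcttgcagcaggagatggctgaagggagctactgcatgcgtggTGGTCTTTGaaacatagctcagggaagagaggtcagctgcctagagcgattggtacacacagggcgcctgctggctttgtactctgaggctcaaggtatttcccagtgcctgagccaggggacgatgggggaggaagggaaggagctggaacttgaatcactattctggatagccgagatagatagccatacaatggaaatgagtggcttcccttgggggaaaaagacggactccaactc
Igfbp1, chr11:7197537-7197836, plus strand: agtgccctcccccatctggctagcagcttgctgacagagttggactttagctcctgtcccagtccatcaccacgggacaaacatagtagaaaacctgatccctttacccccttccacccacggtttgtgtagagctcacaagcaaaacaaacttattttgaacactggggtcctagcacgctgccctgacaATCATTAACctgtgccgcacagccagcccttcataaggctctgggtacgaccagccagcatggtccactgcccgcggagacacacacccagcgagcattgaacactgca
Igfbp2, chr1:72824230-72824529, plus strand, the upstream of 2 windows: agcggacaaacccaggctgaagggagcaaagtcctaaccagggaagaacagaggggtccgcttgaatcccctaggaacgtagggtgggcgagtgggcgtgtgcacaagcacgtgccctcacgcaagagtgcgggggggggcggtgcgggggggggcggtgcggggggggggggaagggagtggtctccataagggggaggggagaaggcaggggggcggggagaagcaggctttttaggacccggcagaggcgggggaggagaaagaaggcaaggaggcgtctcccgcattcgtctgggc
The Igf1 window held an HNF4 type match on the minus strand, whose first base lies at -190 relative to the start site. The Igfbp1 window held an HNF1 type match on the minus strand, whose first base lies at -59. Neither Igfbp2 window held any of these letters, which says nothing about other parts of the gene. All 10 genes had a window, 16 in all, and the only other match in them was of the FOXA type in 1 of 3 windows of Igfals. The 3 motifs occurred in 6.36%, 0.801% and 3.65% of all 32851 windows of the table, in the order HNF4, HNF1 and FOXA type. The 3 matches in the members' windows lie in different windows, so none overlap. A match describes letters and does not show that a factor binds there.

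Counted over probe sets, 10 of 27 were called lower in null livers and 1 was called higher, at an adjusted p under 0.05 in limma's fit over all probe sets. Over all 45037 probe sets the fit called 5.55% lower and 1.46% higher. The family is brighter than the array at large, as 21 of the 27 had both group means above the highest array median. A fit limited to the 22518 probe sets above the median level called 2262 lower and 509 higher. Of these calls 12 and 1 were of the family. In the fit over all probe sets the family's calls lay in Igf1 (3 of 4 probe sets), Igf2 (1 of 2), Igfbp1 (1 of 1), Igfbp2 (1 of 1) and Igfbp4 (4 of 6) for the falls and in Igf2r (1 of 2) for the rise. In 13 probe sets all null arrays lay below all control arrays and in 4 they lay above, where 13.8% and 13.6% of all probe sets did so. By the brightest probe set of each gene, Igf1, Igfbp1 and Igfbp2 were called lower and Igf2r higher, so 3 and 1 of 10 genes, where 7.85% and 1.56% of all genes were called. With each gene's probe sets averaged, the same genes were called, and Igfbp4 was called lower as well (-0.89, limma adjusted p = 0.00127). The share of all genes called in that fit is not given here. The median log2 change of the 27 probe sets was -0.17, against 0.03 over all probe sets. Log2 changes are null minus control of log2(intensity + 32). The added 32 makes the change of dim probe sets look smaller than it is.

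**Figure D1:**
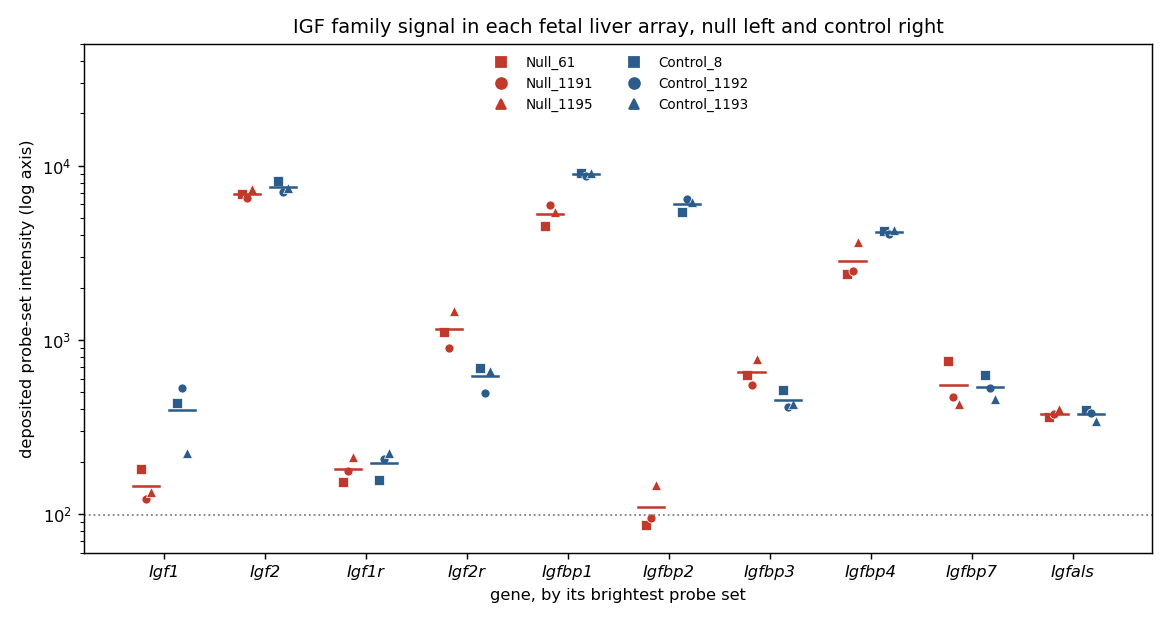
Deposited intensity, on a log axis, of the brightest probe set of each of the 10 genes in each array, with null arrays to the left of control arrays. Bars are group means of 3 arrays and the dotted line is the highest array median, 99.5. The Igfbp2 null arrays lie at 87.1 to 146.9, and the groups of Igf1, Igf2r, Igfbp1, Igfbp2, Igfbp3 and Igfbp4 do not overlap.

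**Figure D2:**
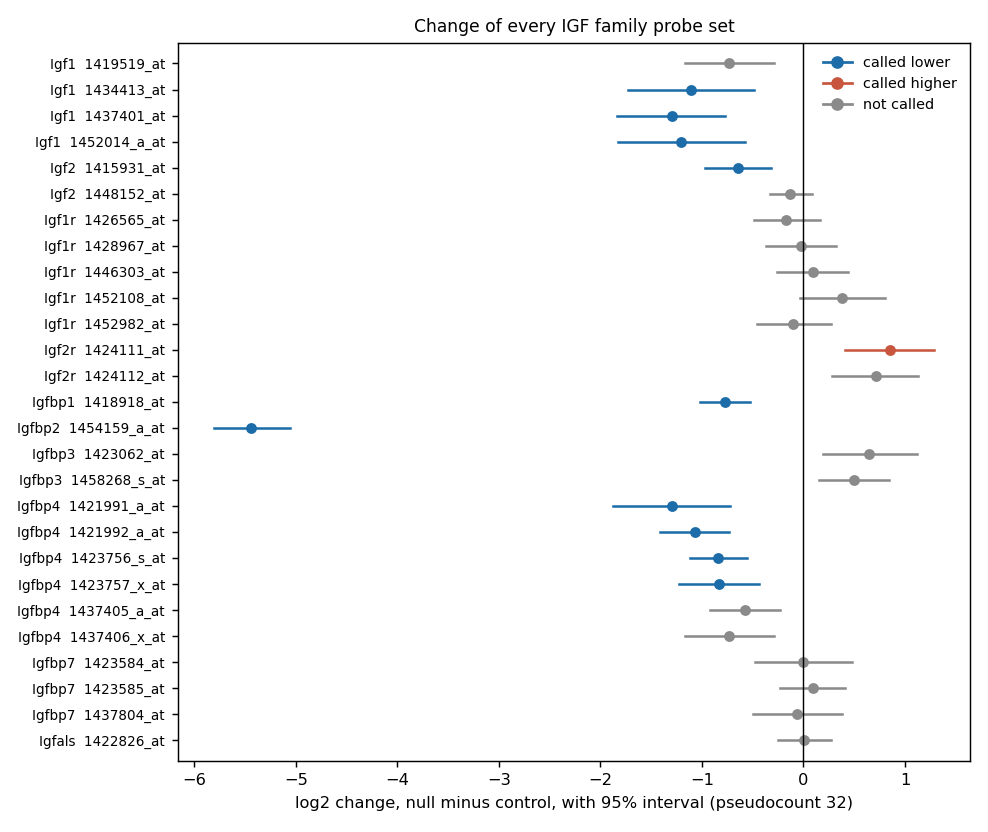
Log2 change, null minus control, of each of the 27 probe sets with its 95% interval from limma, coloured by whether the fit called it. Igfbp2 lies far to the left at -5.44, the 6 Igfbp4 probe sets lie between -1.30 and -0.58, and both probe sets of Igf2r and of Igfbp3 lie right of 0.

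Igf1, the ligand that growth hormone induces in liver, fell in null livers. Its brightest probe set, 1452014_a_at, read 182.4, 122.1 and 133.2 in Null_61, Null_1191 and Null_1195, and 435.1, 532.1 and 223.7 in Control_8, Control_1192 and Control_1193. Every null value lay below every control value, and Control_1193 was the lowest control array. The null mean of 146 ± 32.1 was 36.7% of the control mean of 397 ± 158 (SD, n = 3 each). Its log2 change was -1.21 (standard error 0.27, 95% interval from -1.83 to -0.58). The other probe sets had log2 changes of -1.30 (1437401_at), -1.11 (1434413_at) and -0.73 (1419519_at). The last of these was not called, and its null mean of 76.4 lay below the array medians. Control_1193 was the lowest control array in all 4 probe sets, at 101.0 to 223.7, and stayed above the null arrays in each. In 1452014_a_at the change was -1.12 in Null_61 against Control_8 and -1.25 in the other 4 arrays. The call of that probe set was lost without Null_1191, Null_1195, Control_8 or Control_1192, at log2 changes of -1.11, -1.16, -1.11 and -0.97. With embryo sex as a term the change was -1.19 and was not called. The call of 1437401_at was lost without Null_1191 (-1.25) or Control_1192 (-1.11), and that of 1434413_at without Null_1191 (-1.03), Null_1195 (-1.03), Control_8 (-0.93) or Control_1192 (-0.95). Without Control_1193 the change of 1419519_at was -0.95 and was called, and it was also called with the title number run as a term. The call of 1434413_at was also lost with a pseudocount of 1 (-1.29), quantile normalization (-1.05), no intensity trend (-1.11) and embryo sex as a term (-1.11).

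Igf2, the imprinted fetal ligand, was called lower in 1 of its 2 probe sets. The brighter probe set 1448152_at read 6886.5, 6503.9 and 7385.9 in the null arrays, and 8227.8, 7071.5 and 7422.5 in the control arrays, so the groups overlapped. Its log2 change of -0.13 had a 95% interval from -0.33 to 0.08 and was not called. With quantile normalization the value was 0.04. The dimmer probe set 1415931_at read 479.6, 336.8 and 451.9 in the null arrays, and 657.5, 664.5 and 697.8 in the control arrays. There the null mean was 62.8% of the control mean, and the log2 change of -0.65 (standard error 0.14) was called. It was -0.43 in Null_61 against Control_8 and -0.76 in the other 4 arrays. The 2 probe sets of Igf2 thus disagree in size. The call of 1415931_at was lost without Null_1191 (-0.50), Control_8 (-0.66), Control_1192 (-0.66) or Control_1193 (-0.62), with quantile normalization (-0.47) and with embryo sex as a term (-0.59).

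Igf1r, the receptor that signals for both ligands, was dim in both groups: 4 of its 5 probe sets had a group mean below the highest array median, and 0 of the 5 were called by limma, with 0 at an unadjusted p under 0.05. Without Null_61 1 of them, 1452108_at, was called higher, at 0.57 in place of 0.38. The brightest, 1452982_at, read 152.0, 176.5 and 213.2 in the null arrays, and 157.2, 206.3 and 224.0 in the control arrays. Its log2 change of -0.10 had an interval from -0.46 to 0.27. The other 4 probe sets ranged from -0.17 to 0.38.

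Igf2r, the clearance receptor of Igf2, was the member that rose. Its probe set 1424111_at read 1106.6, 893.1 and 1466.6 in the null arrays, and 690.1, 497.6 and 667.0 in the control arrays. The groups did not overlap, and the null mean of 1155 ± 290 was 187% of the control mean of 618 ± 105 (SD, n = 3 each). The log2 change was 0.85 (standard error 0.19), and was 0.66 in Null_61 against Control_8 and 0.95 in the other 4 arrays. Probe set 1424112_at read 573.7, 653.7 and 834.4 in the null arrays, and 330.1, 384.7 and 515.7 in the control arrays. Its log2 change of 0.71 was not called. Its groups did not overlap either, but null arrays lay above all control arrays in 13.6% of all probe sets. Null_1195 was the highest array in both probe sets. The call of 1424111_at was lost without Null_1195, Control_8, Control_1192 or Control_1193, at log2 changes of 0.67, 0.94, 0.71 and 0.91, and with embryo sex as a term (0.80). Without Null_61 both probe sets were called, at 0.87 and 0.82, and without Control_1193 that of 1424112_at was called at 0.87. With the title number run as a term 1424112_at was called too (0.71), as it was with quantile normalization (0.87) and in the other 4 arrays alone (0.69).

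Igfbp2, an abundant fetal binding protein made in liver, had the largest change of the 27 probe sets. Its 1 probe set, 1454159_a_at, read 87.1, 94.8 and 146.9 in the null arrays, and 5414.3, 6417.1 and 6233.6 in the control arrays. The null readings were close to the array medians, and the lowest control reading was far above the highest null reading. The null mean was 110 ± 32.5, or 1.82% of the control mean of 6022 ± 534 (SD, n = 3 each). The log2 change of -5.44 had a standard error of 0.16 and was -5.52 in Null_61 against Control_8 and -5.40 in the other 4 arrays. In 14 alternative settings it ran from -5.80 to -4.88, both ends being set by the pseudocount, and it was called in all 14.

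Igfbp1, which insulin represses and fasting induces in liver, fell as well. Probe set 1418918_at read 4480.3, 5927.2 and 5393.7 in the null arrays, and 9105.3, 8704.8 and 9086.9 in the control arrays. The groups did not overlap, and the control arrays spanned a narrower range than the null arrays. The null mean of 5267 ± 732 was 58.7% of the control mean of 8966 ± 226 (SD, n = 3 each). Its log2 change was -0.77 (standard error 0.11), and was -1.02 in Null_61 against Control_8 and -0.65 in the other 4 arrays. It was called in all 14 alternative settings, with values from -0.86 to -0.60.

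Igfbp4, which binds both ligands and is made by hepatocytes and by other cells, had null arrays below control arrays in all 6 of its probe sets, and 4 of the 6 were called lower. In the brightest, 1437405_a_at, the null arrays read 2392.2, 2483.9 and 3643.5 and the control arrays read 4207.0, 4048.2 and 4253.7. This probe set was not called at a log2 change of -0.58, and Null_1195 lay nearest to the controls. Probe set 1421992_a_at read 882.6, 661.2 and 683.3 in the null arrays, and 1828.3, 1373.8 and 1572.8 in the control arrays. Its null mean was 46.6% of the control mean, and its log2 change of -1.07 (standard error 0.15) was called. Over the 6 probe sets the null mean ran from 38.9% of the control mean in 1421991_a_at, the dimmest, to 68.1% in 1437405_a_at, the brightest. Without Null_1195 the change of 1437405_a_at was -0.77 and that of 1437406_x_at -0.97, and both were then called. With the title number run (Null_61 and Control_8 against the rest) as a term, all 6 probe sets were called. The log2 change was -0.81 in Null_61 against Control_8 and -0.46 in the other 4 arrays for 1437405_a_at, -1.10 and -0.54 for 1437406_x_at, and -1.02 and -1.09 for 1421992_a_at. The calls of 1421991_a_at and 1423757_x_at were lost without Null_1191 (-1.16 and -0.70) or Control_1192 (-1.38 and -0.81). That of 1421991_a_at was also lost without Null_1195 (-1.15) or Control_8 (-1.11), and that of 1423757_x_at without Control_1193 (-0.78). A term for embryo sex ended both calls (-1.25 and -0.83).

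Igfbp3, the main carrier of IGFs in adult blood, read higher in null livers but was not called. Probe set 1458268_s_at read 630.3, 552.9 and 780.0 in the null arrays, and 517.9, 410.6 and 426.7 in the control arrays, and 1423062_at read 524.9, 577.8 and 904.0 in the null arrays, against 476.4, 348.2 and 393.0 in the control arrays. The groups did not overlap in either, as in the 13.6% of all probe sets where null arrays lay above all control arrays. The log2 changes were 0.50 (interval from 0.15 to 0.84) and 0.65 (0.19 to 1.12). Split by array, they were 0.27 and 0.13 in Null_61 against Control_8 and 0.61 and 0.91 in the other 4 arrays. With quantile normalization both were called, at 0.68 and 0.82, and with the title number run as a term 1458268_s_at was called (0.50). In the other 4 arrays alone 1423062_at was called. Without Null_61 the change of 1423062_at was 0.80 and was called.

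Igfbp7 and Igfals did not pass the test in any of their 4 probe sets. Igfbp7, a low-affinity relative of the binding proteins, is a product of endothelial and other non-parenchymal cells. Its brightest probe set, 1423584_at, read 758.0, 468.8 and 431.5 in the null arrays, and 629.2, 532.9 and 456.8 in the control arrays. The groups overlapped, and the 95% interval of its log2 change ran from -0.48 to 0.48. Igfals probe set 1422826_at read 360.1, 373.3 and 399.0 in the null arrays, and 398.3, 381.1 and 343.7 in the control arrays. Its log2 change of 0.01 had an interval from -0.25 to 0.27.

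Markers of other liver cells moved as well. The summed intensity of 11 stellate and mesenchymal markers was 6182 to 9367 in null livers and 5151 to 6391 in control livers, with 0 called by limma, 3 higher and 0 lower at an unadjusted p under 0.05, and a median log2 change of 0.32. That of 8 macrophage markers was 4469 to 7316 in null livers and 2946 to 3505 in control livers. Limma called 3 of these higher, and 6 were higher and 0 lower at an unadjusted p under 0.05. The sum of 10 endothelial markers was 1844 to 2185 in null livers and 2434 to 2714 in control livers. Of these 3 were called lower, and 5 were lower and 0 higher at an unadjusted p under 0.05. Of the 5 megakaryocyte markers 3 were called lower, and 5 were lower at an unadjusted p under 0.05. Of 6 erythroid and 4 biliary markers 0 were called by limma, with 2 erythroid ones higher and 1 biliary one lower at an unadjusted p under 0.05. Among all genes 7.85% were called lower and 1.56% higher, and the share at an unadjusted p under 0.05 is not given here. The megakaryocyte sum was 3534 to 4043 in null livers and 4996 to 7010 in control livers. For the erythroid sum these ranges were 15973 to 16329 and 14116 to 14831, which do not overlap. Those of the biliary sum, 619 to 775 and 640 to 722, do overlap. Null_61 had the highest sum of the mesenchymal and macrophage lists. Igf2r and Igfbp3 were highest in Null_1195, and the brightest probe set of Igfbp7 was highest in Null_61. The part of these cells in the values of Igf2r, Igfbp3, Igfbp4 and Igfbp7 was not tested.

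The growth hormone receptor gene and Socs2, one of its feedback genes, were lower too. Of 9 measured genes of the pituitary hormone signal 3 fell and 0 rose, where 7.85% and 1.56% of all genes were called lower and higher. Ghr, the receptor through which growth hormone induces Igf1, read 187.6, 152.1 and 190.6 in the null arrays, and 729.8, 654.1 and 559.1 in the control arrays in probe set 1417962_s_at. The null mean was 27.3% of the control mean, and the groups lay far apart. Its log2 change was -1.70 (standard error 0.14, limma adjusted p = 0.000108), with 3 of 3 null arrays below every control array, and was -1.79 in Null_61 against Control_8 and -1.65 in the other 4 arrays. Probe set 1451501_a_at of Ghr fell by 1.41 on the log2 scale, and 1451871_a_at, at -0.40, was not called. Socs2, a target and brake of growth hormone signalling, read 167.5, 159.2 and 179.6 in the null arrays, and 592.5, 612.2 and 466.1 in the control arrays in probe set 1418507_s_at. Its log2 change was -1.54 (limma adjusted p = 0.000152), and was -1.65 in Null_61 against Control_8 and -1.49 in the other 4 arrays. A further probe set, 1449109_at, fell too, at -1.70, and the other 4 of its 6 probe sets were dim and not called. Socs1, another inhibitor of cytokine signals, had a mean of 115 in null livers and 175 in control livers. Its log2 change of -0.49 was called at an adjusted p of 0.0357 in limma, and this call was lost in every fit that left out 1 array other than Null_61, at changes from -0.54 to -0.46, with embryo sex as a term (-0.50) and in the 4 arrays other than Null_61 and Control_8 (-0.47). The kinase gene Jak2 and the transcription factor genes Stat5a and Stat5b had log2 changes of 0.05, -0.01 and 0.04, and Cish was at -0.19, none of them called. Socs3 and Ptpn1, at 0.14 and -0.07, were not called either.

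**Figure D3:**
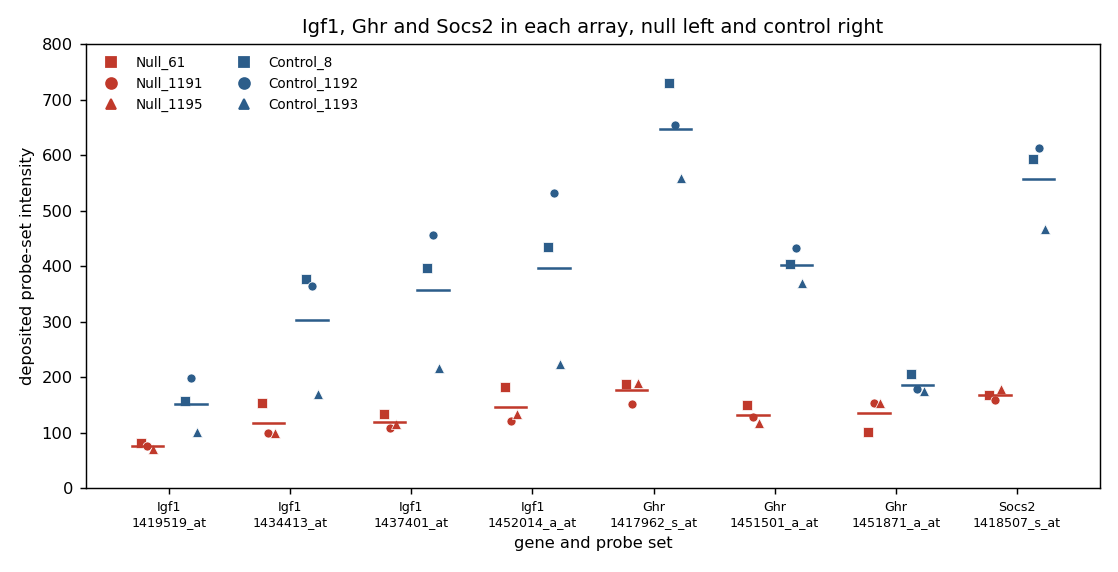
Deposited intensity of the 4 Igf1 probe sets, the 3 Ghr probe sets and the brightest Socs2 probe set in each array, null arrays left of control arrays, with bars at the group means. Null arrays lie below control arrays in every probe set drawn, and Control_1193 is the lowest control array in all 8.

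Insr, Irs1 and Irs2 fell, while Irs4 (-0.46, with overlapping groups) and the Akt and Mtor kinases did not pass the test. Of 19 measured genes of adaptors and intracellular signal 3 were called lower and 0 higher. Over all genes 7.85% were called lower and 1.56% higher. Insr, the insulin receptor, read 180.1, 117.9 and 263.3 in the null arrays, and 523.6, 583.6 and 475.4 in the control arrays in probe set 1434446_at. Its log2 change was -1.40 (standard error 0.23, limma adjusted p = 0.00594), and was -1.39 in Null_61 against Control_8 and -1.41 in the other 4 arrays. Its 2 other probe sets were dim and not called. Irs2, a docking protein that carries the signal of the insulin and IGF receptors, read 20.1, 53.8 and 62.4 in the null arrays, and 164.5, 131.6 and 158.0 in the control arrays, with a log2 change of -1.29 (limma adjusted p = 0.00778). All 3 null readings of Irs2 lay below the array medians, and the change was -1.86 with a pseudocount of 1 and -0.80 with one of 100. It was -1.91 in Null_61 against Control_8 and -0.97 in the other 4 arrays, and it was called with either pseudocount and in those 4 arrays. Irs1, its close relative, had means of 148 in null livers and 254 in control livers, and its log2 change of -0.69 was a marginal call (limma adjusted p = 0.0465). That call was lost without Null_61 (-0.56), Null_1191 (-0.64), Control_8 (-0.66), Control_1192 (-0.75) or Control_1193 (-0.65), and also with a pseudocount of 1 (-0.80), quantile normalization (-0.61), no intensity trend (-0.69), embryo sex as a term (-0.76) and in the 4 arrays other than Null_61 and Control_8 (-0.53). In Null_61 against Control_8 the change was -1.0. Grb14, an adaptor that inhibits the insulin receptor, had means of 248 in null livers and 394 in control livers (log2 change -0.61, limma adjusted p = 0.0132). Its call was lost without Control_8 or Control_1193, at -0.58 in both. Grb10, an imprinted inhibitory adaptor, was not called by its brightest probe set (-0.41), but its 2 other probe sets, 1425457_a_at and 1430164_a_at, fell to 44.6% and 36.5% of the control mean (limma adjusted p = 0.0365 and 0.0313). In Null_61 against Control_8 these were at -0.77 and -1.09, and in the other 4 arrays at -1.43 and -1.58. Akt1, Akt2, Mtor, Foxo1 and Foxo3 had log2 changes of 0.04, -0.20, -0.21, 0.15 and 0.20 by their brightest probe sets, none of them called, although 1 other probe set of Foxo3 was called lower.

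Across this wider list of growth hormone, insulin and IGF genes, 45 of 50 were analysed here, and of these 7 fell (Ghr, Socs1, Socs2, Insr, Irs1, Irs2 and Grb14) and 0 rose in limma, where 7.85% and 1.56% of all genes were called lower and higher. The median log2 change of the 45 was -0.04, against 0.01 over all genes. H19 and Igf2bp2 were not analysed here. At an unadjusted p under 0.05, 10 of the 45 were lower and 2 were higher, and the share of all genes at that threshold is not given here. Of the 6 proteases of binding proteins and their inhibitors 0 were called in limma by their brightest probe sets, with 1 higher and 0 lower at an unadjusted p under 0.05. Pappa2, a protease that cleaves binding proteins, was that 1 and was dim throughout. For Pappa, and for Htra3 elsewhere on the list, 1 other probe set was called higher. Igfbp6, which prefers Igf2, read 199.5, 150.6 and 139.5 in the null arrays, and 147.8, 86.7 and 131.7 in the control arrays, and was not called at 0.35. Igf2bp1 and Igf2bp3, whose products bind Igf2 mRNA, had log2 changes of 0.44 and -0.39 and were not called, although 1 other probe set of Igf2bp1 was called higher and 2 of Igf2bp3 lower. With each gene's probe sets averaged instead of the brightest one taken, 7 genes were lower (Ghr, Socs1, Insr, Irs1, Irs2, Grb10 and Pdk1) and 3 higher (Htra3, Pappa and Igf2bp1). The 7.85% and 1.56% above are not from that fit, whose share of all genes called is not given here. Pdk1 is on the list but encodes a pyruvate dehydrogenase kinase. It is not the insulin and IGF signalling kinase gene Pdpk1, which was not called and was at -0.05 by its brightest probe set. Socs2 and Grb14 were then not called, and Insr was at -0.48. Ins2, the insulin gene beside Igf2, had means of 130 in null livers and 135 in control livers and was not called at -0.03.

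**Figure D4:**
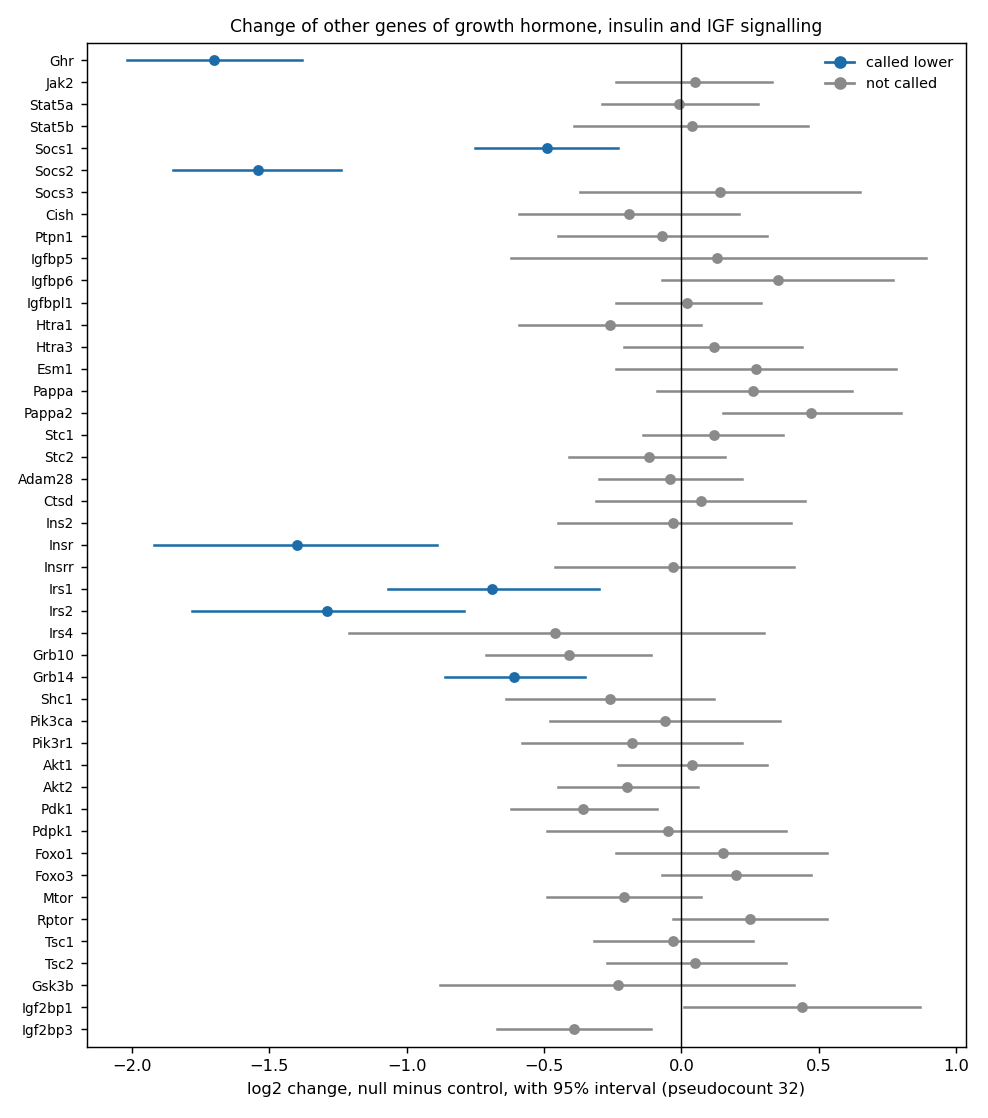
Log2 change, null minus control, of 45 genes of the wider list by their brightest probe set, with 95% intervals from limma. The wider list of growth hormone, insulin and IGF genes also holds Pdk1, a pyruvate dehydrogenase kinase gene. The 7 called genes lie left of 0, from -1.70 for Ghr to -0.49 for Socs1.

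Binding protein genes that lie side by side had unlike values. In the RefSeq gene table (GRCm38.p6) Igfbp1 and Igfbp3 are neighbours on chromosome 11, and Igfbp2 and Igfbp5 are neighbours on chromosome 1. The 95% interval of the log2 change lay below 0 for Igfbp1, at -1.02 to -0.53, and above 0 for Igfbp3, at 0.15 to 0.84, although Igfbp3 was not called. Igfbp5, a binding protein that also enters the large complex with the acid-labile subunit, read 115.0, 358.2 and 299.2 in the null arrays, and 168.5, 209.6 and 264.7 in the control arrays. These groups overlapped, and Null_61 was the lowest array. The log2 change of 0.13 had an interval from -0.62 to 0.89, against -5.81 to -5.06 for Igfbp2. Of 16 measured neighbours that are not family members 1 was called, Pgpep1l beside Igf1r, with means of 72.4 in null livers and 283 in control livers (log2 change -1.57, limma adjusted p = 0.00134). Over all genes 7.85% were called lower and 1.56% higher.

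**Figure D5:**
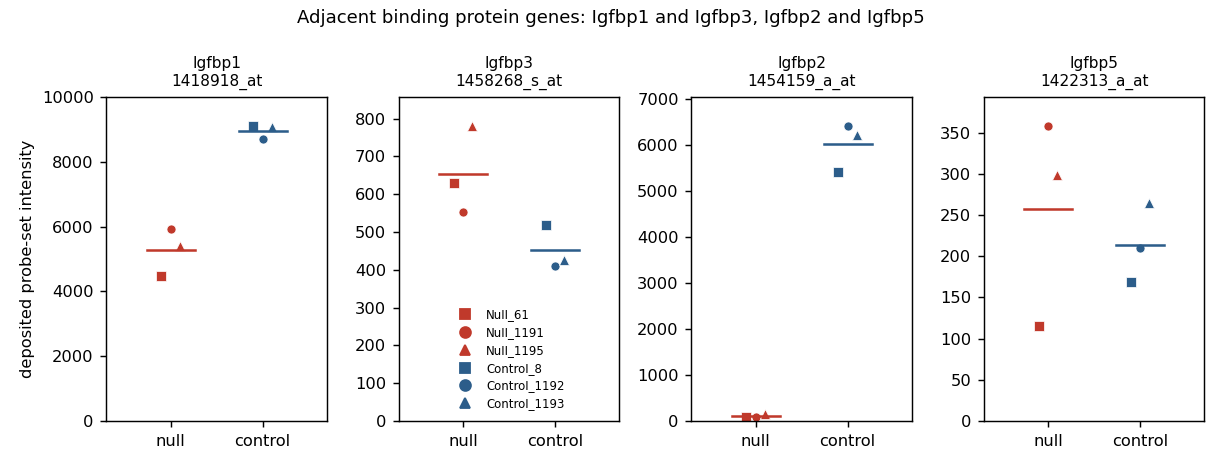
Deposited intensity in each array, null arrays left of control arrays, of 2 pairs of adjacent genes, with bars at the group means and a separate axis from 0 for each gene. Igfbp1 reads 4480.3 to 5927.2 in null arrays and 8704.8 to 9105.3 in control arrays, Igfbp3 runs the other way, and Igfbp5 overlaps between groups while Igfbp2 does not.

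Genes with the most similar pattern were found by the mean absolute difference, over the 6 arrays, of log2 values taken relative to the control mean. The search covered 12848 other genes, those with a group mean above the highest array median of 99.5 in at least 1 group. For Igfbp2, the member with the largest fall, these were F13b (0.126), Rdh7 (0.154), Abcb11 (0.178), Cyp2d10 (0.219) and F12 (0.236). All 5 read between -48.0 and 54.9 in null arrays, where the added 32 weighs heavily in the log2 value. They passed the brightness filter only through the control group. Abcb11, Cyp2d10 and F12 read below 0 in every null array and entered as 0, so their likeness to Igfbp2 there depends on the floor. Only Rdh7 read above 32 there, in Null_1191 (54.9) and Null_1195 (47.8), while Igfbp2 itself read 87.1 to 146.9. For Igf2r, the member with the largest rise, they were Ank2 (0.094), Ahnak (0.096), Rcan2 (0.111), Prom1 (0.112) and Ciita (0.142). Their log2 changes ran from 0.68 to 0.94, and of the 5 the fit called Ank2 and Ciita. Ank2 and Rcan2 passed the brightness filter only through the null group.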

How the data were processed

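RNA was purified on silica columns, biotin-labelled by the usual Affymetrix procedure and hybridised to 1 array per sample, per the labels. The authors deposited 1 linear intensity per probe set and array, from -1856 to 12608, with 0.908% to 1.34% of each array below 0. Summarisation, background correction and scaling were not given in the sources used here. No genome build was either. The Affymetrix controls, 64 of 45101 probe sets, did not enter the fit. Platform annotation gave 1 symbol to 34945, several to 932 and none to 9160 of the rest. Only probe sets with 1 symbol were named.

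Intensities were floored at 0 and entered as log2(intensity + 32), with no further normalization. Null was compared with control by limma 3.58.1 in R 4.3.3 (lmFit, eBayes with an intensity trend, 3 arrays a group, no covariate, two-sided), with Benjamini-Hochberg adjustment over 45037 probe sets and a threshold of 0.05. The code of the fit was tested on simulated independent normal values, with known changes added to some probe sets above the median level. That simulation held no effect of embryo sex, title number run or single arrays, so it does not bear on how firm the calls are. A gene in a list is represented by its brightest probe set by mean log2 value. The genes named are all family members, the called and preset genes of the wider list, adjacent genes and the 5 most similar genes. The members, lists and tests were chosen with earlier results of these data known. Alternatives were other pseudocounts (1 and 100), quantile normalization, a filter on dim probe sets, no intensity trend, a term for the run of title numbers or for embryo sex, the 4 arrays other than Null_61 and Control_8 alone, the mean of a gene's probe sets, and each array left out in turn. Other background corrections could not be tried on summarised values. The number of arrays limits the precision.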

Additional observations from a re-analysis of the deposited data

How the results depend on the processing

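No paired analysis was possible because the null and control arrays share no title number. Against 10 family probe sets called lower in the reported fit, 13 were called lower with a term for the title number run, 12 with the filter on dim probe sets, 5 with embryo sex as a term, 8 to 10 with the other settings, and 4 to 10 when 1 array was left out (4 without Null_1191 or Control_1192, 6 without Control_8). Of those called higher, against 1 in the reported fit, there were 4 with quantile normalization, 3 with a term for the title number run, 3 in the 4 arrays other than Null_61 and Control_8, 0 with embryo sex as a term (limma), and 0 to 4 when 1 array was left out (4 without Null_61, 0 without Null_1195, Control_8 or Control_1192). Against 7 genes of the wider list called lower, there were 4 to 7 when 1 array was left out (4 without Control_8 or Control_1193), and against 0 called higher by limma there were 0 in each of those fits and 3 with the mean of a gene's probe sets. Over all 45037 probe sets the reported fit called 2501 lower and 658 higher, and quantile normalization 2138 and 1182. The title number run term gave 3689 and 1865, the sex term 1907 and 366, and the 4 arrays other than Null_61 and Control_8 2883 and 1143. The filter on dim probe sets gave 2262 and 509 of 22518. Without Null_61 there were 3197 and 1499, without Null_1191 1691 and 281, and without Null_1195 2102 and 304. Without Control_8 there were 1807 and 292, without Control_1192 1534 and 211, and without Control_1193 1686 and 288. Changes that turned sign were all in values that were not called. For Igf2 1448152_at the value was 0.04 with quantile normalization. With 1 array left out, Igf1r ran from -0.12 to 0.09 (1428967_at), from -0.03 to 0.19 (1446303_at) and from -0.23 to 0.00047 (1452982_at). In the same fits Igfbp7 ran from -0.24 to 0.15 (1423584_at) and from -0.25 to 0.12 (1437804_at), Igfals from -0.04 to 0.05 and Igfbp5 from -0.14 to 0.56. Igfbp7 1423584_at was at -0.13 in the 4 arrays other than Null_61 and Control_8, and with the sex term Igfbp7 1437804_at was at 0.02, Igfals at -0.02 and Igfbp5 at -0.01. The causes were not tested. With 3 arrays a group, readings near the array medians limit what can be told apart.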

Other observations

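Probe set 1440979_at, which the annotation gives to both Airn and Igf2r and which was left out of the family for that reason, read 69.1, 68.9 and 30.3 in the null arrays, and 67.8, 56.5 and 61.1 in the control arrays. Its log2 change of -0.12 was not called.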
